A study of Mus musculus with 4 samples.

Results

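The genes of the mitochondrial respiratory chain were followed across 4 sections of mouse mouth lining and facial skin. They were chosen by name: every gene whose symbol starts with Nduf, Sdha, Sdhb, Sdhc, Sdhd, Uqcr, Cox4, Cox5, Cox6, Cox7, Cox8, Atp5 or mt-. The rule found 111 of the 32285 genes in the count tables. Of these, 13 are encoded on mitochondrial DNA and 98 in the nucleus. The nuclear members hold 85 subunits, 12 assembly factors and Ndufb1-ps, which carries a pseudogene's symbol in this annotation. By complex, the nuclear subunits divide into 38 of complex I, 4 of complex II, 8 of complex III, 18 of complex IV and 17 of complex V. Grouping followed the symbols, so Ndufa4, now regarded as a complex IV subunit, was counted with complex I, and Cox7a2l, a factor of respiratory supercomplexes, with complex IV.

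The respiratory chain passes electrons from NADH and succinate to oxygen and uses the energy to pump protons across the inner mitochondrial membrane, and complex V, the ATP synthase, lets them flow back to make ATP. The mitochondrial genes are transcribed inside the organelle as long precursors that are cut apart, while the nuclear subunits are transcribed in the nucleus and imported as proteins. Skeletal muscle is rich in mitochondria, and its fibres use their own isoforms of some complex IV subunits, among them Cox6a2, Cox7a1 and Cox8b, where most other cells use Cox6a1, Cox7a2 and Cox8a. Epithelium, fibroblasts and blood cells of skin and mouth hold fewer mitochondria per cell than muscle fibres do.

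The study set repair of the mouth lining beside repair of facial skin in wildtype mice. Spatial capture slides (Visium) were used, in which polyadenylated RNA of a flash-frozen section binds to barcoded spots and each captured molecule is counted as a unique molecular identifier (UMI). The groups were oral mucosa at postoperative day 4, unwounded oral mucosa, facial skin at postoperative day 4 and unwounded facial skin, each with 1 section. With 1 section per group there is no estimate of the spread between animals and no test of a difference. Intervals are exact 95% intervals that cover counting error within a section only. A spot is a small patch of tissue, and its RNA can come from neighbouring cells of more than 1 kind.

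The sections held 3004174 UMIs in 430 spots for day 4 oral mucosa, 7285023 in 1288 spots for unwounded oral mucosa, 9934290 in 1141 spots for day 4 facial skin and 11939479 in 671 spots for unwounded facial skin. In unwounded oral mucosa 652 spots had under 100 UMIs and together held 0.349% of the section's UMIs. The keratin Krt13 of mouth lining had 55167 and 197399 UMIs in day 4 and unwounded oral mucosa, against 6 and 27 UMIs in day 4 and unwounded facial skin. Xist had 84 and 909 UMIs in the day 4 oral and facial sections, against 0 and 1 in the unwounded ones, while Ddx3y had 0 in both day 4 sections, against 280 and 587 in the unwounded oral and facial ones, so day and the sex-linked transcripts cannot be told apart. The section labelled unwounded facial skin goes against its label in its neutrophil markers. All 7 of 7 were lower in day 4 facial skin by the 1.5-fold rule given below, where 8.59% of all genes were. S100a8 had 739 UMIs there, against 36155 UMIs in the unwounded section. The regenerating muscle list ran the other way, at 0.00867% of UMIs in day 4 facial skin and 0.00101% in the unwounded section, with Myh3 at 86 and 1 UMIs. Whether the labels of the facial sections are exchanged was not tested. The unwounded section is called here the section labelled unwounded facial skin, and leaving out its 102 spots of at least 1% neutrophil markers was added as an alternative after the data were seen. Only day 4 oral mucosa held salivary gland transcripts at an appreciable level, 0.402% of its UMIs. Between 46 and 347 spot barcodes were common to each pair of sections, which are fixed positions of the slide design.

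The respiratory chain genes took up far more of the RNA in oral mucosa than in facial skin. All 111 together gave 17.4% of UMIs in day 4 oral mucosa and 26.9% in unwounded oral mucosa, against 5.0% in day 4 facial skin and 4.95% in the section labelled unwounded facial skin. The 13 mitochondrial genes alone gave 11.9%, 20.8%, 2.75% and 2.71% in that order of sections. The 85 nuclear subunits gave 5.32%, 5.97%, 2.20% and 2.18%. More UMIs were therefore counted for the mitochondrial genes than for the nuclear subunits in all 4 sections. Capture may differ between these sets, so their ratio is compared between sections only. It was lowest in unwounded oral mucosa, where 0.287 nuclear subunit UMIs were counted per mitochondrial UMI. That ratio was 0.446 in day 4 oral mucosa, against 0.799 in day 4 facial skin and 0.803 in the section labelled unwounded facial skin. In bulk over a section, fewer cells of a type and less RNA per cell cannot be told apart.

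**Figure D1:**
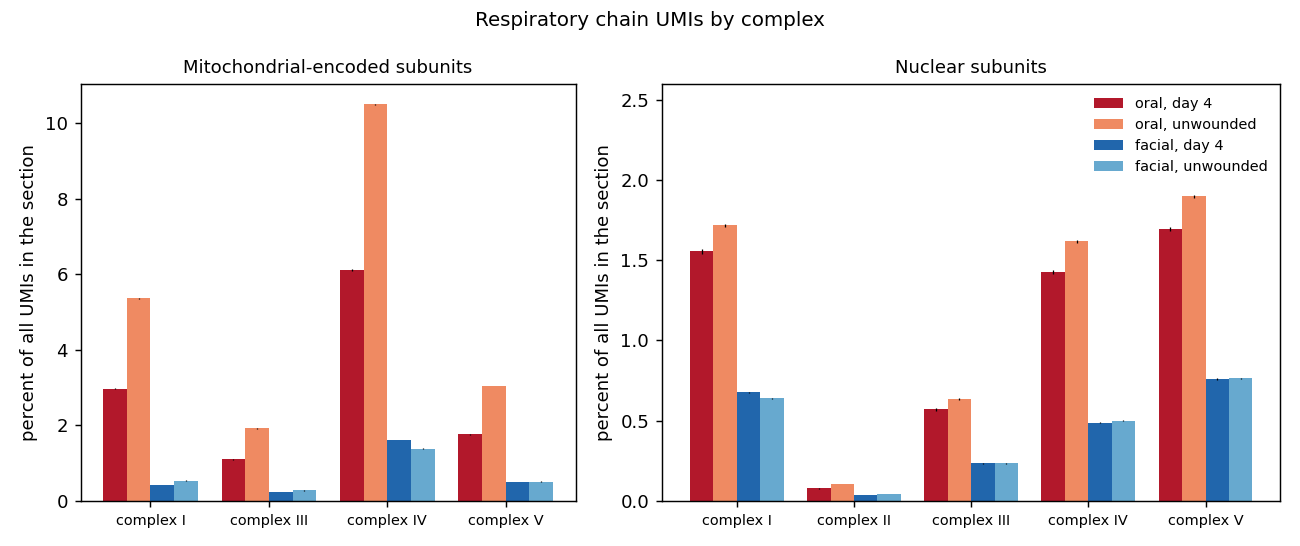
Summed level of the respiratory chain genes by complex in each section, as bars from 0 in percent of the section's UMIs, with mitochondrially encoded subunits on the left and nuclear subunits on the right, 1 section per group and exact 95% counting intervals as black lines. In both oral sections the mitochondrial subunits of every complex that has them lie well above the facial ones, with complex IV at 6.10% and 10.5% in day 4 and unwounded oral mucosa against 1.61% and 1.38% in day 4 and unwounded facial skin.

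The difference between the tissues ran with skeletal muscle in the sections. The list of 16 skeletal muscle markers gave 5.76% of UMIs in day 4 oral mucosa and 7.16% in unwounded oral mucosa, against 0.119% in day 4 facial skin and 0.146% in the section labelled unwounded facial skin. All 16 were detected in the oral sections and in day 4 facial skin, and Myh7, the slow myosin, was at 0 UMIs in the section labelled unwounded facial skin. Mb, the oxygen store of muscle, had 15403 and 62619 UMIs in day 4 and unwounded oral mucosa, against 298 and 380 in day 4 and unwounded facial skin. Spots with at least 1% of their UMIs from these markers are called muscle spots below, and the day 4 oral section had 167 of them, the unwounded oral section 978, the day 4 facial section 44 and the section labelled unwounded facial skin 8. At least 1000 UMIs were present in 160, 438, 43 and 8 of these, and many muscle spots of unwounded oral mucosa were nearly empty.

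Within the oral sections, the mitochondrial share of UMIs was high where muscle markers were high. Among spots of at least 1000 UMIs in day 4 oral mucosa, it had a lowest value of 1.06%, a median of 3.87% and a highest of 39.0% over 365 spots. In unwounded oral mucosa the lowest was 1.68%, the median 20.8% and the highest 45.3% over 523 spots. In day 4 facial skin the corresponding values were 0.483%, 2.09% and 13.7% over 1096 spots, and in the section labelled unwounded facial skin 0.630%, 2.34% and 26.4% over 653 spots. The facial sections thus had a narrow body of spots with few high ones, while the oral sections spread over a wide range. Spearman's rho between the mitochondrial and the muscle marker share was 0.82 in day 4 oral mucosa and 0.92 in unwounded oral mucosa, against 0.09 in day 4 facial skin and 0.06 in the section labelled unwounded facial skin. Within muscle spots alone it was 0.69, 0.88, 0.56 and 0.88 in that order, the last over 8 spots. Within spots under 1% muscle markers it was 0.23, 0.53, 0.03 and 0.03. These are descriptions over spots of 1 library each, which share its depth and its total, and rho between the mitochondrial share and the UMIs of a spot was 0.18, 0.22, 0.21 and 0.04 in the same order of sections.

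**Figure D2:**
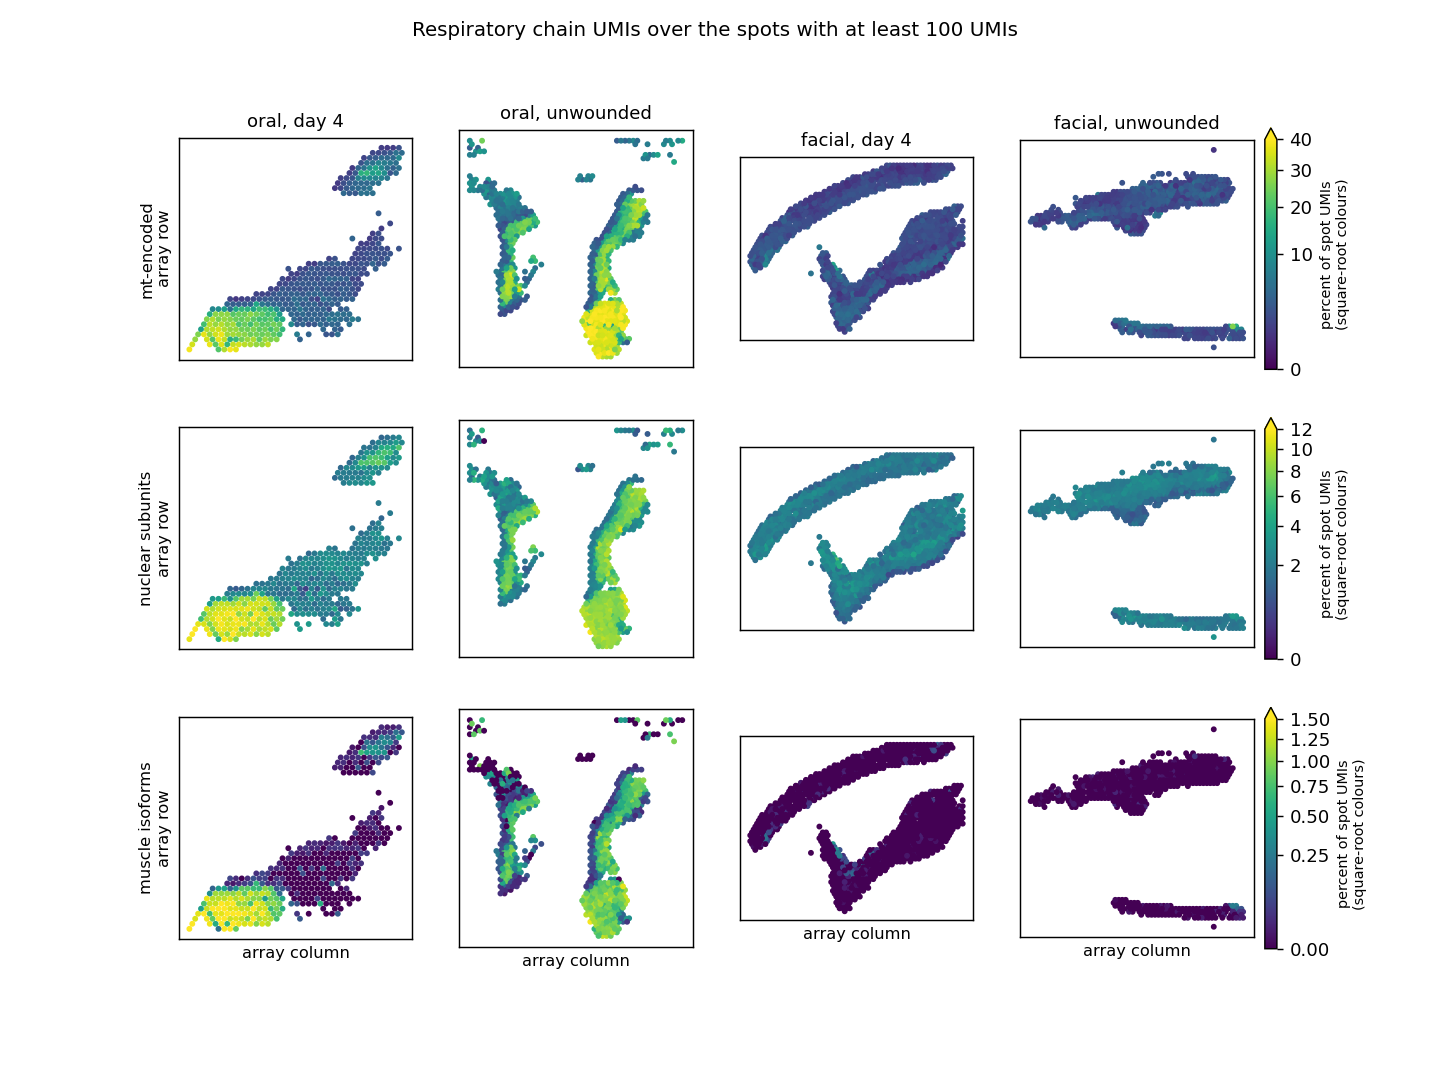
Maps of the 4 sections, with each spot of at least 100 UMIs at its array row and column, coloured on a square-root scale by its percent of UMIs from mitochondrially encoded genes (top row), nuclear subunits (middle row) and the muscle isoforms Cox6a2, Cox7a1 and Cox8b (bottom row). In the oral sections the same patches of spots are high for all 3 measures, and the facial sections are evenly low apart from small patches.

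Muscle spots and other spots were then counted apart. In muscle spots the mitochondrial genes gave 21.7% of UMIs in day 4 oral mucosa and 25.8% in unwounded oral mucosa, against 4.32% in day 4 facial skin and 11.4% in the 8 muscle spots of the section labelled unwounded facial skin. In other spots they gave 2.32%, 3.42%, 2.70% and 2.55%. The nuclear subunits gave 8.56%, 7.10%, 3.29% and 2.91% in muscle spots, and 2.14%, 2.07%, 2.17% and 2.16% in other spots. Away from muscle, therefore, the nuclear subunits held nearly the same share of the RNA in all 4 sections. Some muscle RNA remained in the other spots of the oral sections, at 0.342% of UMIs in day 4 and 0.594% in unwounded oral mucosa, against 0.0340% in day 4 and 0.0319% in unwounded facial skin.

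**Figure D3:**
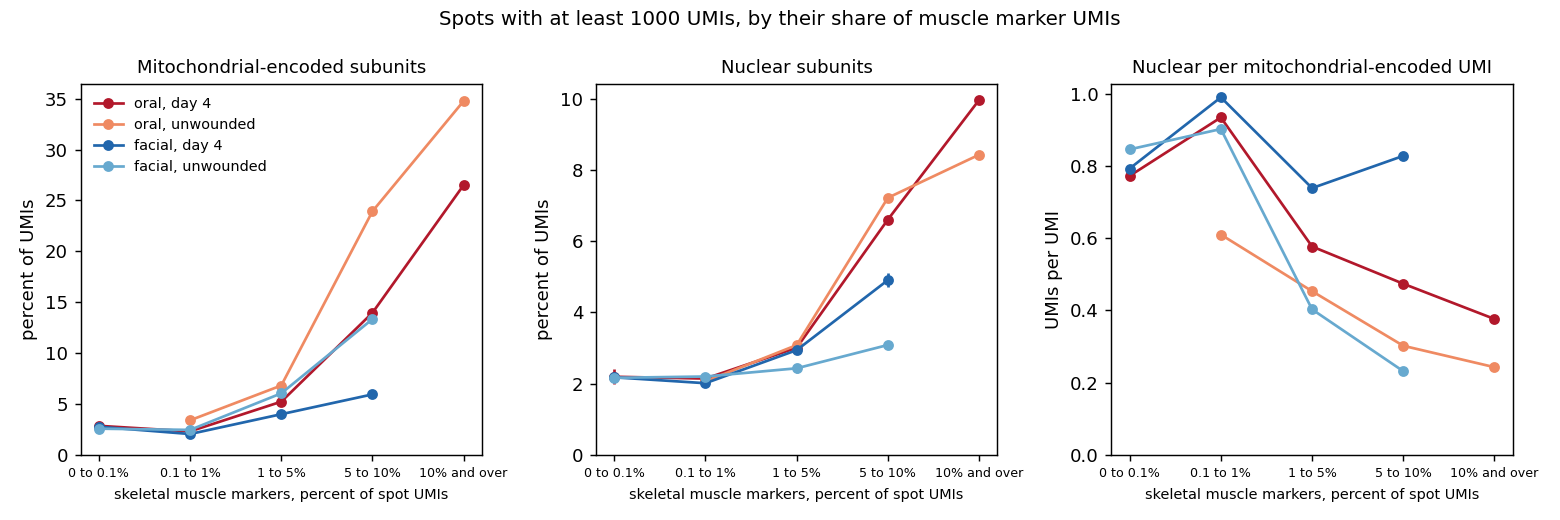
Percent of UMIs from mitochondrially encoded genes (left) and from nuclear subunits (middle), and nuclear UMIs per mitochondrial UMI (right), in bins of spots by their percent of skeletal muscle marker UMIs, for spots of at least 1000 UMIs, with 1 line per section and exact 95% counting intervals, most of them smaller than the points. In the highest bin of the oral sections, mitochondrial genes reached 26.5% of UMIs at day 4 and 34.8% in unwounded mucosa, and nuclear subunits 9.97% and 8.44%.

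At a like share of muscle markers the sections still differed. In spots with 5 to 10% muscle markers, the mitochondrial genes gave 14.0% of UMIs in 31 spots of day 4 oral mucosa and 23.9% in 186 spots of unwounded oral mucosa. In facial skin they gave 5.92% in 5 spots at day 4 and 13.3% in 5 spots of the section labelled unwounded, which are few. The nuclear subunits gave 6.61% and 7.22% in the day 4 and unwounded oral bins, so they were nearer to each other than the mitochondrial genes were. In spots with at least 10% muscle markers the nuclear subunits were higher in day 4 oral mucosa, with 9.97% in 96 spots, against 8.44% in 152 spots of unwounded oral mucosa, while the mitochondrial genes were lower, with 26.5% against 34.8%.

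The nuclear and the mitochondrial share ran together over spots most closely in the oral sections and least in day 4 facial skin. Spearman's rho between them was 0.81 over 365 spots of day 4 oral mucosa, 0.86 over 523 spots of unwounded oral mucosa, 0.16 over 1096 spots of day 4 facial skin and 0.43 over 653 spots of the section labelled unwounded facial skin. In other spots alone rho was 0.26, 0.51, 0.12 and 0.42, so there the section labelled unwounded facial skin lay above day 4 oral mucosa. With each spot thinned to 1000 UMIs these last values were 0.22, 0.45, 0.11 and 0.23, and within each section the spots share a library and a total.

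The mitochondrial genes differed between the tissues by gene as well as in sum. Cytochrome c oxidase subunit mt-Co1, part of the catalytic core of complex IV, stood at 21148 CPM, its UMI count scaled by the section's total, in day 4 oral mucosa and 42381 CPM in unwounded oral mucosa, against 4738 CPM in day 4 facial skin and 4359 CPM in the section labelled unwounded facial skin. mt-Nd2, a membrane subunit of complex I, stood at 9687, 17437, 752 and 1109 CPM in the same order. mt-Co2, the complex IV subunit that takes electrons from cytochrome c, stood at 12190, 21260, 4524 and 3444 CPM. In every case the oral sections lay above the facial ones, but by unequal factors. Unwounded oral mucosa over the section labelled unwounded facial skin gave a log2 CPM ratio of 3.98 [3.95, 4.00] for mt-Nd2, 3.28 [3.27, 3.29] for mt-Co1 and 2.63 [2.61, 2.64] for mt-Co2. Of 13 mitochondrial genes measured in that comparison, 13 were at least 1.5-fold higher with counting intervals that did not overlap, where 10.1% of all genes counted were (those with a sum of at least 20 UMIs in the pair of sections). Of 12 with enough UMIs at day 4, 12 were higher in oral mucosa, where 11.5% of all genes were.

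The median log2 ratio of the mitochondrial genes, with 10 CPM added to both sides, was 2.94 between the unwounded sections and 2.36 between the day 4 sections, beside medians over all genes of -0.47 and -0.27. The mitochondrial sum gave a log2 ratio of 2.94 [2.94, 2.95] between the unwounded sections and 2.12 [2.11, 2.13] between the day 4 sections, and the unwounded value was 2.95 without the 102 neutrophil marker spots of the facial section. In other spots alone these were 0.43 [0.41, 0.44] and -0.22 [-0.23, -0.20], so at day 4 the sign turned once the muscle spots were left out. That day 4 value is 1.16-fold, under the 1.5-fold rule. The medians over all genes in other spots, with 10 CPM added, were -0.31 and -0.11. Among the genes of the unwounded comparison in other spots, 5 of 12 mitochondrial genes were at least 1.5-fold higher in oral mucosa, where 6.86% of all genes were, and none was lower, where 33.7% of all genes were. At day 4, none of 12 was higher in the other spots of oral mucosa, where 11% of all genes were, and 1 was lower, where 16% were. The day 4 value also rested on 1 part of the tissue: when the day 4 oral section was divided by its median row and median column into parts, part 3 of the 4 held 124 of its 167 muscle spots, and without it the log2 ratio of the mitochondrial sum was 0.28.

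The largest ratios among the mitochondrial genes belonged to short ones that overlap a neighbour. mt-Nd4l, a small complex I subunit, stood at 502 CPM in day 4 oral mucosa and 638 CPM in unwounded oral mucosa, against 14.6 CPM in day 4 facial skin and 17.0 CPM in the section labelled unwounded facial skin. mt-Atp8, a small subunit of the ATP synthase, stood at 273, 454, 14.7 and 17.6 CPM. The annotation places mt-Nd4l at bases 9877 to 10173 of the mitochondrial genome and mt-Nd4 at 10167 to 11544, and mt-Atp8 at 7766 to 7969 and mt-Atp6 at 7927 to 8607 (GRCm38.p6, RefSeq). Both pairs share bases and are carried on shared transcripts, so how their counts divide between the neighbours is uncertain. mt-Nd6, the complex I subunit encoded on the opposite strand from the other members, had 11, 110, 7 and 11 UMIs, too few for a firm level.

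The mix of mitochondrial transcripts differed between muscle and other spots. mt-Nd2 made up 8.70% of mitochondrial UMIs in the muscle spots of day 4 oral mucosa, 8.51% in those of unwounded oral mucosa, 3.73% in those of day 4 facial skin and 8.29% in those of the section labelled unwounded facial skin. In other spots it made up 2.76%, 4.75%, 2.70% and 3.74%. The share was thus higher in muscle spots in each section. Over all spots mt-Co2 made up 10.2% of mitochondrial UMIs in each oral section, against 16.5% in day 4 facial skin and 12.7% in the section labelled unwounded facial skin. Of the other complex IV genes, mt-Co3 made up 23.2% in day 4 and 19.9% in unwounded oral mucosa, against 24.8% in day 4 facial skin and 22.2% in the section labelled unwounded facial skin. mt-Co1 made up 17.7%, 20.4%, 17.3% and 16.1% in the same order, so its share was higher in oral mucosa than in facial skin between the unwounded sections, where those of mt-Co2 and mt-Co3 were lower.

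Muscle spots of the oral sections were richer than other spots in nearly every member. Of 12 mitochondrial genes with enough UMIs in day 4 oral mucosa 12 were at least 1.5-fold higher in muscle spots, and of 13 in unwounded oral mucosa 13, where 10% and 12.7% of all genes were. Of the nuclear subunits, 77 of 81 were higher and 3 lower in day 4 oral mucosa, and 77 of 82 were higher and 2 lower in unwounded oral mucosa, where 45.5% and 35.5% of all genes were lower. All 17 complex V subunits and all 8 of complex III were higher in both sections. The 16 markers that define muscle spots include no respiratory chain gene. The mitochondrial sum had a log2 ratio of 3.22 [3.21, 3.24] in day 4 oral mucosa and 2.92 [2.90, 2.93] in unwounded oral mucosa. The nuclear sum had 2.00 [1.98, 2.02] and 1.78 [1.76, 1.80], smaller than the mitochondrial one in each.

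Single members of that comparison spanned a wide range. mt-Nd2 stood at 18883 CPM in muscle spots of day 4 oral mucosa, against 641 CPM in its other spots, a ratio of 29.5-fold. Atp5g1, which encodes the proton-carrying c subunit of the ATP synthase, stood at 1481 CPM against 185 CPM, or 8.01-fold. Ndufa13, a complex I subunit, stood at 1154 CPM against 141 CPM, or 8.21-fold. These genes were also higher in muscle spots of unwounded oral mucosa, by 13.5-fold for mt-Nd2, 4.63-fold for Atp5g1 and 4.72-fold for Ndufa13.

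The complex IV isoforms of muscle separated the sections more than any other nuclear group described here. Promoters of the pairs Cox7a1 with Cox7a2 and Cox8b with Cox8a are printed because the muscle isoform and its partner had unlike ratios between muscle and other spots. Each is 300 bases around the start used in the RefSeq promoter table (GRCm38.p6), read 5′ to 3′ on the gene's strand, with matches to the searched motifs in capitals. Cox7a1 is at chr7:30183921-30184220 on the plus strand, Cox8b at chr7:140900397-140900696, Cox7a2 at chr9:79759804-79760103 and Cox8a at chr19:7217567-7217866, all 3 on the minus strand. The Cox7a2 window lies inside the annotated gene, which spans bases 79755241 to 79771422, so the start shown is not the gene's outermost one.
Cox7a1: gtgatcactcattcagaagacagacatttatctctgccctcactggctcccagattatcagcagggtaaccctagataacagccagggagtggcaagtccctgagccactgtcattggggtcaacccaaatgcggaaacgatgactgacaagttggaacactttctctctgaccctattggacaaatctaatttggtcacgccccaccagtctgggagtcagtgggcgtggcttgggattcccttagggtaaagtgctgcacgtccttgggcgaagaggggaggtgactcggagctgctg
Cox8b: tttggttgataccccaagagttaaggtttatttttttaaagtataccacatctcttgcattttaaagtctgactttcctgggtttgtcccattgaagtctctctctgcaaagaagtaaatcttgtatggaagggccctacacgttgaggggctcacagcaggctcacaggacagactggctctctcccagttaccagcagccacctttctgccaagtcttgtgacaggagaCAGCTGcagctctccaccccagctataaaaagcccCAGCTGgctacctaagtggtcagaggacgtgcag
Cox7a2: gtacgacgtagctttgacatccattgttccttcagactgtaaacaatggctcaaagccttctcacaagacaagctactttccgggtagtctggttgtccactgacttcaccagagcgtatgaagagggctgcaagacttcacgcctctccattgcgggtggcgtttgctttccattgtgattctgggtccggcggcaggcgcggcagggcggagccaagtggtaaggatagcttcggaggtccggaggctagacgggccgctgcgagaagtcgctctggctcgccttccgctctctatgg
Cox8a: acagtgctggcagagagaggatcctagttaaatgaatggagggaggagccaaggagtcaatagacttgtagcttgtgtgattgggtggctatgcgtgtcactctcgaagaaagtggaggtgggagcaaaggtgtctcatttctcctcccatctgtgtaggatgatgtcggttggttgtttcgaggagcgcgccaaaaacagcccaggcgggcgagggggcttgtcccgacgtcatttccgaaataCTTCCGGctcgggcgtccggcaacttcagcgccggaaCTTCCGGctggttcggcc
Searched on both strands were CAGCTG (an E-box bound by muscle factors such as MyoD), the palindromic NRF1 consensus, CCGGAAG (ETS factors, including the GABP subunit that acts on many respiratory genes) and AAGGTCA (estrogen-related receptors). The Cox8b window holds CAGCTG at -19 and 16 from the start, which matched on both strands as a palindrome, and the Cox8a window holds CCGGAAG on the minus strand at -5 and 32. The Cox7a1 and Cox7a2 windows hold no match, and no matches overlapped. Of the 69 nuclear subunits in the promoter table, 8.70% held CAGCTG in any of their windows, 27.5% the NRF1 consensus, 24.6% CCGGAAG and 11.6% AAGGTCA. Of all 27025 genes there, 18.3%, 7.00%, 9.93% and 5.38% did. These are matches of letters, and no binding was measured. Cox6a2 was named only.

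Cox6a2 stood at 2015 CPM in day 4 oral mucosa and 2329 CPM in unwounded oral mucosa, against 13 CPM in day 4 facial skin and 20.3 CPM in the section labelled unwounded facial skin. Its partner Cox6a1 stood at 315, 269, 443 and 529 CPM in the same order. By CPM, Cox6a2 is therefore far above its facial level in both oral sections, and Cox6a1 somewhat below its own. The median log2 ratio over all genes was also negative, at -0.47 between the unwounded sections and -0.27 at day 4. Cox7a1 stood at 926, 1330, 7.05 and 5.78 CPM, against 680, 694, 379 and 336 CPM for Cox7a2. Cox8b stood at 1871, 2105, 19.7 and 8.63 CPM, against 419, 329, 423 and 517 CPM for Cox8a. Levels of different genes are not set against each other here, since the 3′ capture of each may differ, and the shares are compared between sections. The genes lie at chromosome 7, bases 128205435 to 128206366 for Cox6a2, 30184171 to 30186030 for Cox7a1 and 140898942 to 140900446 for Cox8b (GRCm38.p6, RefSeq).

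As a share of the isoform and its partner, Cox6a2 made up 86.5% in day 4 oral mucosa and 89.6% in unwounded oral mucosa, against 2.85% in day 4 facial skin and 3.69% in the section labelled unwounded facial skin. Cox8b made up 81.7%, 86.5%, 4.45% and 1.64%, and Cox7a1 57.7%, 65.7%, 1.82% and 1.69%. In muscle spots, the Cox6a2 share was 95.9% and 93.1% in day 4 and unwounded oral mucosa, against 55.2% and 75.6% in day 4 and unwounded facial skin. Its share in other spots was 15.6% and 26.9% in the oral sections, against 0.507% and 0.747% in the facial ones. The oral and facial muscle spots therefore still differed in the mix, and the muscle markers in those spots differed too, at 11.3%, 9.06%, 3.27% and 6.34% of UMIs in day 4 oral, unwounded oral, day 4 facial and unwounded facial spots. Per muscle marker UMI, the 3 isoforms gave 0.0845 UMIs in day 4 oral muscle spots and 0.0806 in unwounded oral ones, against 0.0367 in day 4 and 0.0230 in unwounded facial ones.

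**Figure D4:**
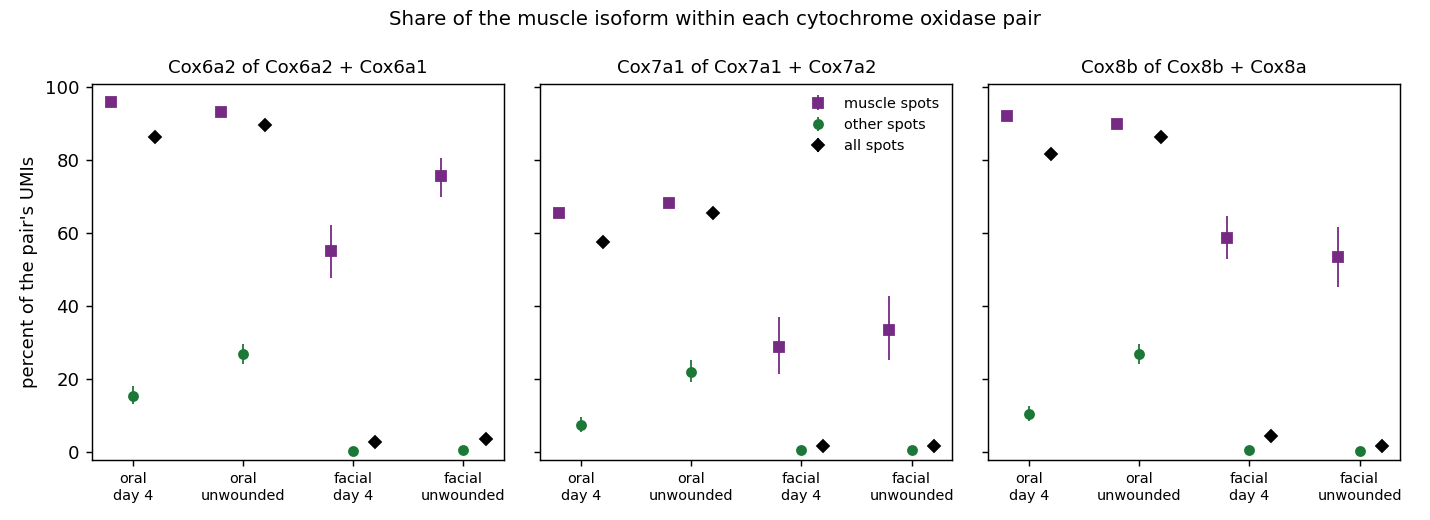
Share of each muscle isoform in the sum of isoform and partner UMIs, in percent, for Cox6a2, Cox7a1 and Cox8b by section, in muscle spots (squares), other spots (circles) and all spots (diamonds), with exact 95% binomial intervals. Oral sections lie far above facial ones for each isoform over all spots, with Cox6a2 at 86.5% and 89.6% in day 4 and unwounded oral mucosa against 2.85% and 3.69% in day 4 and unwounded facial skin.

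Between the unwounded sections, Cox6a2 had a log2 CPM ratio of 6.84 [6.66, 7.03], Cox7a1 of 7.85 [7.51, 8.21] and Cox8b of 7.93 [7.65, 8.22], while Cox6a1 had -0.97 [-1.05, -0.90], Cox8a -0.65 [-0.72, -0.58] and Cox7a2 1.05 [0.99, 1.11]. TMM, the trimmed mean scaling of edgeR, shifts every log2 ratio of the unwounded tissue comparison by 0.81, the day 4 one by 0.43, the oral wound one by -0.31 and the facial wound one by 0.064, and with it Cox8a turned to 0.16 between the unwounded sections. At day 4 they were 7.28 [7.03, 7.54], 7.04 [6.70, 7.40] and 6.57 [6.36, 6.78] for the muscle isoforms, and -0.49 [-0.60, -0.39], -0.01 [-0.11, 0.08] and 0.84 [0.76, 0.92] for Cox6a1, Cox8a and Cox7a2. The skeletal muscle markers moved alongside, with 16 of 16 higher in oral mucosa in both comparisons. Of all genes, 10.1% were higher there between the unwounded sections and 11.5% at day 4. The part of the markers in the isoform difference was not tested. Within muscle spots of day 4 oral mucosa Cox6a1 was 2.72-fold lower than in other spots and Cox8a 1.66-fold lower, while Cox7a2 was 2.40-fold higher. In unwounded oral mucosa Cox6a1 was 2.05-fold lower and Cox7a2 2.08-fold higher, and Cox8a, at a log2 ratio of -0.57 [-0.69, -0.44], did not pass the 1.5-fold rule.

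Other tissue isoforms ran differently. Ndufa4l2, a relative of Ndufa4 that is induced by low oxygen, stood at 124 CPM in day 4 oral mucosa and 97.2 CPM in unwounded oral mucosa, against 217 CPM in day 4 facial skin and 150 CPM in the section labelled unwounded facial skin. In muscle spots it was 4.73-fold lower than in other spots of day 4 oral mucosa and 3.02-fold lower in unwounded oral mucosa. As a share of Ndufa4 and Ndufa4l2 together it made up 6.98%, 5.42%, 21.7% and 18.6% in the 4 sections, and 18.0%, 24.1%, 22.1% and 18.8% in other spots alone. Away from muscle the share was thus much nearer between the tissues. Cox6b2, an isoform best known in testis, had 7 and 11 UMIs in day 4 and unwounded oral mucosa, against 83 and 72 in day 4 and unwounded facial skin, and the log2 CPM ratio was -2.0 [-3.06, -1.07] between the unwounded sections. Cox4i2, an isoform known from lung and from cells that sense oxygen, had 16, 34, 26 and 46 UMIs. Cox8c had 1 UMI in day 4 facial skin and 0 elsewhere, and Cox7b2 had 0 UMIs in all 4 sections, where a count of 0 allows up to 3 UMIs as a one-sided limit.

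The usual partners of these isoforms, Cox4i1, Ndufa4, Cox6b1 and Cox7b, were at least 1.5-fold higher in oral mucosa in both tissue comparisons. Cox4i1, the usual isoform of subunit 4, stood at 1286 CPM in day 4 oral mucosa and 1558 CPM in unwounded oral mucosa, against 776 CPM in day 4 facial skin and 681 CPM in the section labelled unwounded facial skin. Ndufa4 had a log2 CPM ratio of 1.37 [1.33, 1.41] between the unwounded sections and 1.07 [1.02, 1.12] at day 4. Cox6b1, which helps to join the complex IV dimer, had 1.17 [1.11, 1.23] and 0.96 [0.88, 1.04], and Cox7b 0.96 [0.91, 1.01] and 1.11 [1.03, 1.18]. None of the 4 passed the 1.5-fold rule in either wound comparison.

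Counted over all nuclear subunits, the unwounded sections differed in nearly every complex. Of 83 with enough UMIs, 74 were higher in oral mucosa and 5 lower, where 10.1% and 59.7% of all genes were. The median log2 ratio of the 83 was 1.31, beside -0.47 over all genes. Complex I had 37 of 38 higher, complex III 8 of 8, complex V 15 of 17, complex IV 11 of 16 and complex II 3 of 4. The 5 lower ones were Cox6a1, Cox8a, Cox7a2l, Cox6b2 and Ndufa4l2, and with TMM none of the subunits was lower and Cox8a and Ndufa4l2 turned to 0.16 and 0.19. Away from muscle, 3 of 83 were higher in the other spots of oral mucosa, where 6.86% of all genes were, and 4 lower, where 33.7% were. Those 3 were Cox6a2, Cox7a1 and Cox8b, and those 4 were Cox7a2l, Sdhd, Atp5a1 and Atp5l.

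At day 4, 73 of 83 nuclear subunits were higher in oral mucosa and 2 lower, with a median log2 ratio of 1.06, beside -0.27 over all genes and beside 11.5% of all genes higher and 35.5% lower. Complex I had 35 of 38 higher and complex IV 11 of 16. In the other spots 3 of 83 were higher, where 11% of all genes were, and without part 3 of the day 4 oral section, which held 124 of its muscle spots, 4 of the nuclear subunits were higher. Atp5e, the smallest subunit of the ATP synthase catalytic part, stood at 2725 CPM in day 4 oral mucosa and 591 CPM in day 4 facial skin, and at 2439 CPM in unwounded oral mucosa and 473 CPM in the section labelled unwounded facial skin. It had a log2 ratio of 2.20 [2.16, 2.25] at day 4 and 2.37 [2.32, 2.41] in the unwounded pair. Atp5g1 had 2.14 [2.06, 2.23] and 2.38 [2.31, 2.44] for the same comparisons, and Ndufa13 2.08 [1.98, 2.17] and 2.41 [2.33, 2.49]. With 10 CPM added to both sections, the scale by which named members were chosen, these 3 had the highest values among nuclear members outside the isoform pairs. Without it the scarcer assembly factor Ndufaf5 stood higher, at 2.6 [2.21, 2.99] at day 4 and 2.80 [2.54, 3.07] in the unwounded pair.

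**Figure D5:**
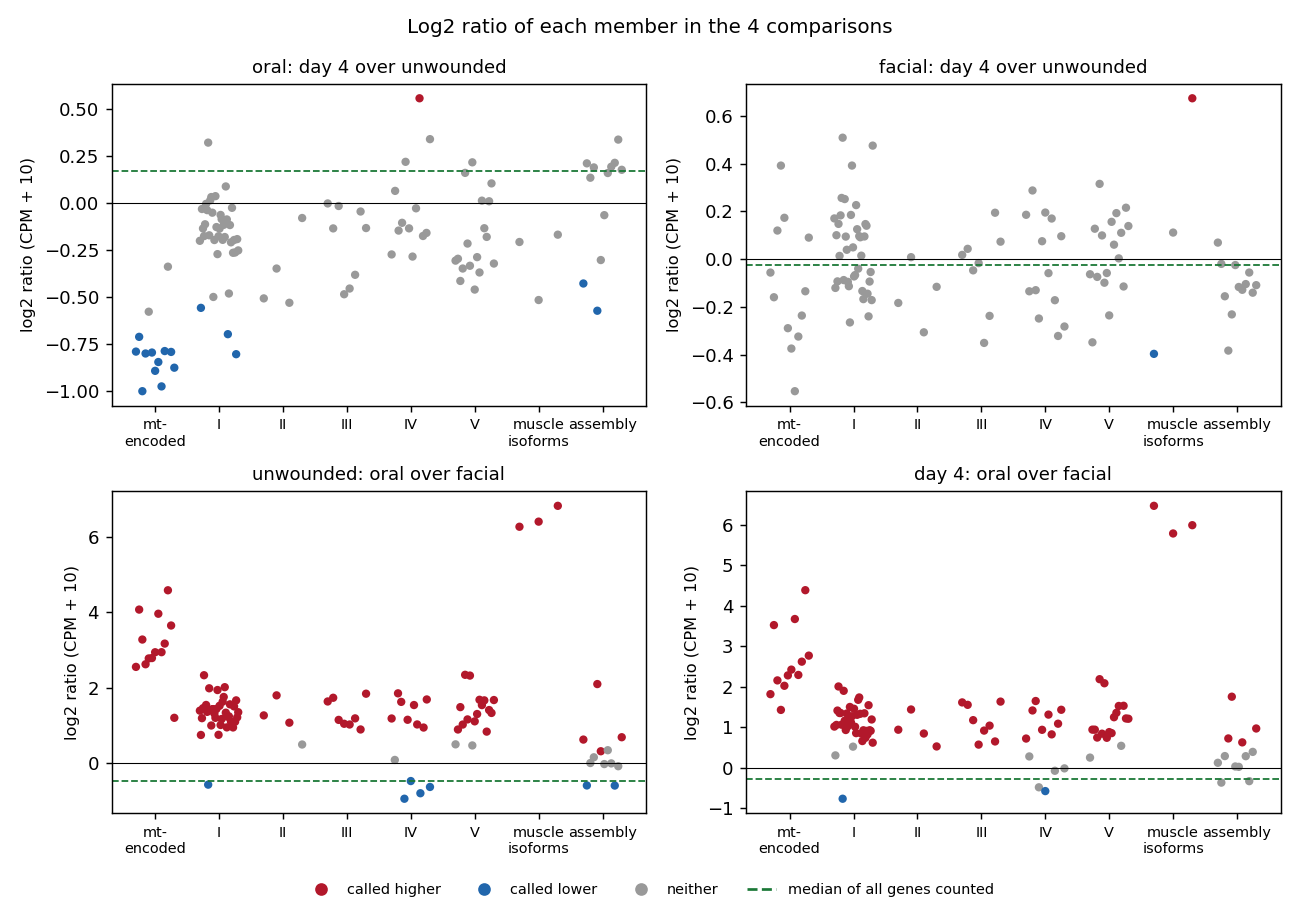
Log2 CPM ratio of each member in the 4 comparisons, with 10 CPM added to both sections, as 1 point per gene grouped by mitochondrially encoded genes, nuclear subunits by complex, the muscle isoforms and assembly factors, coloured by the 1.5-fold rule, where the dashed line marks the median of all genes counted. Mitochondrial genes lie around 2.94 in the unwounded tissue comparison and nuclear subunits around 1.31, while in the oral wound comparison they lie around -0.80 and -0.17.

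Complex II, the only complex with no mitochondrial subunit, also links the chain to the citric acid cycle. Its catalytic subunit Sdha stood at 240 CPM in day 4 oral mucosa and 345 CPM in unwounded oral mucosa, against 120 CPM in day 4 facial skin and 138 CPM in the section labelled unwounded facial skin. Sdhb, its iron-sulfur subunit, stood at 250, 322, 86.1 and 85.5 CPM, and the membrane anchors Sdhc at 181, 266, 96.3 and 122 CPM and Sdhd at 107, 113, 70.9 and 77.6 CPM. All 4 were highest in unwounded oral mucosa. The log2 ratio between the unwounded sections was 1.32 [1.23, 1.41] for Sdha and 1.91 [1.81, 2.02] for Sdhb. In both oral sections, all 4 were higher in muscle spots than in other spots.

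In the oral wound comparison the mitochondrial genes were lower at day 4 and the nuclear subunits were nearly level. Of 13 mitochondrial genes 11 were at least 1.5-fold lower in day 4 oral mucosa, where 3.56% of all genes were, and none was higher, where 20.6% were. The 2 that were not lower by the rule were mt-Co3, at 27664 CPM in day 4 and 41345 CPM in unwounded oral mucosa, and mt-Nd4l. mt-Co1 had the lowest value among the well-counted genes, at a log2 ratio of -1.0 [-1.02, -0.99]. The sum had -0.80 [-0.81, -0.80], beside a median over all genes of 0.17. Of 82 nuclear subunits 3 were lower, near the 3.56% of all genes, and 1 was higher, where 20.6% of all genes were. Their median was -0.17. The lower ones were Ndufv1, Ndufs1 and Ndufa10, and the higher one was Cox7a2l, at 229 CPM in day 4 and 153 CPM in unwounded oral mucosa. The lower ones belong to complex I, which holds 38 of the 85 nuclear subunits, so no pattern by complex is read from them. Ndufv1, which holds the NADH site, stood at 190 CPM in day 4 and 340 CPM in unwounded oral mucosa, and Ndufs1, the large iron-sulfur subunit, at 124 and 207 CPM. Between the sums, the nuclear minus mitochondrial log2 ratio was 0.64 [0.63, 0.65].

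The oral wound values moved with the spots that were counted. In muscle spots alone 1 of 13 mitochondrial genes was lower at day 4, where 7.87% of all genes were, namely the scarce mt-Nd6, and the sum had a log2 ratio of -0.25 [-0.26, -0.25]. Of 82 nuclear subunits, 2 were higher in muscle spots, where 6.29% of all genes were, and 1 lower, and their sum had 0.27 [0.26, 0.28]. Those higher were Atp5e, at 4764 CPM in day 4 and 2965 CPM in unwounded muscle spots, and Cox7a2l, and the lower one was Ndufa4l2. The muscle spots were not alike in muscle content, with markers at 11.3% of UMIs in day 4 and 9.06% in unwounded ones. Per muscle marker UMI, the mitochondrial genes gave 1.93 UMIs in day 4 and 2.85 in unwounded muscle spots. The nuclear subunits without muscle isoforms gave 0.675 and 0.703, so neither sum was higher at day 4 on that scale. In other spots 8 of 12 mitochondrial genes were lower at day 4, where 5.23% of all genes were, with a sum of -0.56 [-0.58, -0.54]. Of 81 nuclear subunits 4 were lower there, near the 5.23% of all genes, and 1 was higher, where 16.5% of all genes were. The lower ones were Cox6a2, Cox7a1, Cox8b and Ndufv1. Muscle markers made up 0.342% of UMIs in day 4 and 0.594% in unwounded other spots, and their part in these calls was not tested. The mitochondrial log2 ratio over all spots was -2.64 without part 3 of the day 4 section, which held 124 of its muscle spots, with 74 nuclear subunits lower, and -0.19 without part 2, with 41 muscle spots, with none lower. It was -1.08 without part 3 of the unwounded section and -0.32 without part 4 of it, with 14 and 1 nuclear subunits lower. With TMM scaling it was -1.12, and 26 nuclear subunits were lower and none higher.

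Muscle transcripts also differed between the oral sections. The list of 10 genes of regenerating muscle, such as the embryonic myosin Myh3 and the fusion factor Mymk, gave 0.165% of UMIs in day 4 and 0.0457% in unwounded oral mucosa. Of these genes 10 of 10 were higher at day 4, where 20.6% of all genes were. Myh3 had 280 UMIs in day 4 and 11 in unwounded oral mucosa. Most UMIs of the list came from Myh8, with 3635 of 4970 in day 4 and 2812 of 3328 in unwounded oral mucosa. With 1 section each, a change of muscle state and a different muscle in the section cannot be told apart. Of the 16 markers of skeletal muscle, 7 were lower at day 4 and none higher, where 3.56% and 20.6% of all genes were. The lower ones included the fast myosin Myh4, at 79.6 CPM in day 4 and 1032 CPM in unwounded oral mucosa. Mb was another, at 5127 and 8596 CPM. The other 9 did not pass the rule, among them Acta1 at 14581 and 13848 CPM, Myh2 at 2789 and 2484 CPM and Mylpf at 6689 and 4959 CPM. These values move with the mitochondrial result, and their part in it was not tested. Over all muscle spots together, none of the 3 muscle isoforms passed the rule, and their sum had a log2 ratio of 0.38 [0.35, 0.41]. By bins of spots with at least 1000 UMIs, the direction was mixed. With at least 10% muscle markers the isoforms gave 1.20% of UMIs in day 4 and 0.932% in unwounded oral mucosa. With 5 to 10% markers they gave 0.554% and 0.738%, and with 1 to 5% markers 0.0975% and 0.160%.

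In facial skin the wound comparison showed little. The mitochondrial sum had a log2 ratio of 0.02 [0.01, 0.03], and of 12 mitochondrial genes none was higher, where 6.09% of all genes were, or lower, where 8.59% were. Of 83 nuclear subunits 1 was higher and 1 lower, with a median of 0.01, beside -0.03 over all genes. Cox8b was higher, at 196 UMIs in day 4 facial skin and 103 in the section labelled unwounded, with a log2 CPM ratio of 1.19 [0.84, 1.55]. Cox6a2 was lower, at 129 and 242 UMIs, with -0.64 [-0.96, -0.33]. Cox6a2 and Cox8b, both muscle isoforms, thus went opposite ways, and each rested on few UMIs in a tissue with 44 and 8 muscle spots in the day 4 and unwounded sections. The call for Cox6a2 was not kept with TMM scaling, where 2 were higher and none was lower, and without the 102 neutrophil marker spots 2 were higher. Ndufv3, at 220 CPM in day 4 facial skin and 156 CPM in the section labelled unwounded, had the highest value among the other nuclear members, at 0.50 [0.41, 0.59], and Atp5b, the catalytic beta subunit, was among the lowest, at -0.35 [-0.39, -0.31]. Neither passed the rule. In other spots of facial skin none of 83 nuclear subunits was higher, where 5.71% of all genes were, or lower, where 9.01% were. Among the spots of the section labelled unwounded facial skin, those with at least 1% neutrophil markers had mitochondrial and nuclear shares of 2.78% and 1.95%, and the 569 others 2.70% and 2.21%.

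Assembly factors, which build the complexes but are not part of them, had few UMIs. The 12 gave 0.0395% of UMIs in day 4 oral mucosa and 0.0397% in unwounded oral mucosa, against 0.0269% in day 4 facial skin and 0.0300% in the section labelled unwounded facial skin. Between the unwounded sections 4 of 12 were higher in oral mucosa and 2 lower, where 10.1% and 59.7% of all genes were, and at day 4, 4 were higher and none lower, where 11.5% and 35.5% were. Ndufaf5, a complex I assembly factor, had the highest ratio of those named, with 84.7 CPM in unwounded oral mucosa and 12.1 CPM in the section labelled unwounded facial skin. Ndufaf2, another complex I factor, and Sdhaf2, which attaches the cofactor of Sdha, were lower in unwounded oral mucosa, at -0.83 [-1.12, -0.55] and -0.75 [-0.99, -0.53], and with TMM Sdhaf2 turned to 0.054.

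Regions of spots, clustered without the respiratory chain genes, placed the values on tissue. In day 4 oral mucosa a region of 110 spots led by Myh8, Myh2 and Mb gave 26.5% mitochondrial and 9.86% nuclear UMIs. A region of 91 spots led by Postn, Myh4 and Mybph gave 6.44% and 3.99%, and the lowest region, led by the epidermal cornification gene Lce1a1, 1.44% and 1.55%. In unwounded oral mucosa a region led by Myh8 and Myh2 gave 35.3% and 8.47%, a region led by Myh4 and Myom2 23.0% and 6.96%, and a region led by Lce3d 3.20% and 1.73%. The muscle-led regions were the highest of both oral sections for mitochondrial genes. In day 4 facial skin a region led by Myh1 and Tnnt3 gave 3.38% and 2.59%, while another led by Myh4, Myl4 and H19 gave 1.94% and 2.03%. Muscle markers made up 1.65% and 0.761% of UMIs in these regions. The Myh1 region was the highest of its section for mitochondrial genes and the Myh4 region was not. In the section labelled unwounded facial skin the region led by Acta1 gave 3.79% and 2.19%. The highest nuclear shares of the facial sections, 2.72% and 2.70%, came from regions led by Fa2h and Serpinb6d, of which Fa2h makes hydroxylated skin lipids. The regions are clusters of each section and their leading genes are not results.

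Genes that work with the chain were read from 7 further lists, whose counts are read against the shares of all genes counted. Those were 10.1% higher and 59.7% lower between the unwounded sections, 11.5% and 35.5% at day 4, 20.6% and 3.56% in the oral wound comparison, and 6.09% and 8.59% in the facial one. Of 19 citric acid cycle genes, 16 were higher in unwounded oral mucosa than in the section labelled unwounded facial skin and none lower, with a median log2 ratio of 1.03, and 11 were higher at day 4. In the oral wound comparison 6 of the 19 were lower and none higher, among them Pdha1, a subunit of pyruvate dehydrogenase, at -0.85, and Pdk4, a kinase that turns that enzyme off, at -1.32. In the facial wound comparison 1 of 19, Pdk2, was higher, at 0.65.

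Fatty acid oxidation genes were 4 higher and 1 lower of 14 between the unwounded sections, and 3 higher and 3 lower at day 4, where 11.5% and 35.5% of all genes were. Cpt1b, the muscle form of the enzyme that admits fatty acids to mitochondria, had a log2 ratio of 4.84 between the unwounded sections, and Cpt1a, the form of other tissues, -1.09. In the oral wound comparison 6 of 14 were lower and 1 higher, with Hadha, a subunit of the trifunctional protein, at -0.69. Of 12 carriers and creatine kinases, 6 were higher and 4 lower between the unwounded sections, where 10.1% and 59.7% of all genes were. Ckmt2, the mitochondrial creatine kinase of muscle, stood at 7.45 and Slc25a4, the ADP and ATP carrier of muscle, at 4.28. In the oral wound comparison Slc25a4 had -0.73 and Slc25a5, the carrier of most other cells, 0.70.

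Electron carriers and assembly genes outside the chosen symbols were 7 higher of 31 between the unwounded sections, with cytochrome c, Cycs, at 1.98 and Chchd10 at 3.64, and none lower, where 10.1% and 59.7% of all genes were. Of 7 quinone-reducing enzymes, 1, Etfb, was higher there, and in the oral wound comparison Sqor, which oxidises sulfide, was higher at 1.13. The list of biogenesis and transcription genes was 4 higher and 10 lower of 21 between the unwounded sections, and the lower count is no more than the 59.7% of all genes. With TMM scaling 3 of the lower genes, Ssbp1, Tfb2m and Pnpt1, turned to 0.051, 0.16 and 0.0044. Ppargc1a, a coactivator of mitochondrial genes, had a log2 ratio of 5.53 there, which rested on few UMIs in the facial section. Nrf1, a transcription factor of nuclear respiratory genes, had -1.30. In the oral wound comparison Ppargc1a had 20 UMIs in day 4 and 169 UMIs in unwounded oral mucosa, a log2 CPM ratio of -1.80. Of 14 mitophagy and stress genes 2 were higher and 5 lower between the unwounded sections, with Pink1, a kinase that marks damaged mitochondria, at 2.22 and Atf4, a stress factor, at -1.56, both counts being near or below the shares of all genes. With TMM scaling Hspd1, a lower gene of that list, turned to 0.0092. The muscle markers were also higher in oral mucosa in these comparisons, and their part in the values was not tested.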

How the data were processed

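Visium RNA capture was measured in 4 wildtype mouse sections, 1 per group. Per the file headers the deposited counts were made with Space Ranger 1.3.1, and per the submitters' processing notes with the mm10 genome, Space Ranger and Seurat; which annotation and which Seurat release they used is not given in the sources used here. The deposited values are raw UMI counts per gene and spot under tissue. Counts were summed per section and scaled to CPM. Sections held 3004174 to 11939479 UMIs, and with 1 section per group no test across samples was run. A gene was called higher or lower at 1.5-fold or more with exact 95% Poisson intervals that did not overlap, at a sum of at least 20 UMIs over the pair; the counting steps were tested on simulated data. Ratios carry exact conditional intervals and shares exact Clopper-Pearson intervals, which cover counting error only. Medians used log2 of CPM plus 10.

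Regions were Leiden clusters (scanpy 1.11.5) of each section at resolution 0.5, without the respiratory chain genes. No doublet caller was run on spots. Named genes were all mitochondrial genes, the isoform pairs, complex II, the 3 highest and 3 lowest other nuclear members with at least 100 UMIs per comparison, up to 4 genes of each pathway list and markers where results move with them; genes outside this that a call of few genes or a turned sign singled out were named after their values were seen. Members and lists were chosen with earlier results of these data known. Alternatives were edgeR 4.0.16 TMM scaling, totals without mitochondrial genes, spot and UMI minimums, spots without muscle, means over spots, a 2-fold rule, parts of sections and pairs left out. One alternative, spots of the section labelled unwounded facial skin under 1% neutrophil markers, was chosen after seeing the data. All 111 members matched the RefSeq gene table, 15 under another symbol. Python 3.11.15, numpy 2.4.6, scipy 1.17.1 and pandas 2.3.3 were used. Other parts of the study were not analysed here. One gene that the naming rule gave is not reported here.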

Additional observations from a re-analysis of the deposited data

How the results depend on the processing

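With 1 section per group, counting intervals hold no spread between animals, so neither the tissue nor the wound differences can be separated from differences between animals or in how sections were cut. No paired analysis was possible because each group held 1 section. Of 162 alternative values of the log2 results 144 kept their sign. Values below run in the order oral wound, facial wound, unwounded tissue, day 4 tissue unless named. In spots with under 1% muscle markers 2 values of the day 4 tissue comparison reversed, with the mitochondrial sum at -0.22 and the nuclear minus mitochondrial difference at 0.20. There the mitochondrial sum was -0.56, 0.085 and 0.43 in the other 3, the nuclear minus mitochondrial difference 0.61, -0.083 and -0.49, and the muscle isoforms relative to partners were at -1.41 in the oral wound, 5.85 between unwounded tissues and 4.27 between day 4 tissues. In these spots 3 nuclear subunits were higher in each tissue comparison, 1 was lower at day 4, and 0 were higher or lower in the facial wound. With TMM factors the mitochondrial sum was -1.12, 0.084, 3.75 and 2.55, and nuclear subunits were 0 higher and 26 lower in the oral wound, 2 higher and 0 lower in the facial wound, 0 lower between unwounded tissues and 1 lower at day 4. With totals without mitochondrial genes the sum was -0.96, 3.24 and 2.26 in the oral wound and both tissue comparisons, and nuclear subunits were 0 higher and 11 lower in the oral wound and 2 lower between unwounded tissues. With means over spots the sum was -0.93, -0.17, 2.77 and 2.01, the nuclear minus mitochondrial difference 0.19, -1.41 and -0.96 in the last 3, and the isoforms -0.58, 1.26, 7.65 and 5.81, with 0 higher and 8 lower in the oral wound, 3 higher and 0 lower in the facial wound and 2 lower between unwounded tissues. With at least 1000 UMIs per spot the sum was 2.95 and 2.13 in the tissue comparisons and 0 nuclear subunits were higher in the oral wound. At 2-fold, 0 were higher and 0 lower in the oral wound, 0 lower in the facial wound, 1 lower between unwounded tissues, and 46 higher and 1 lower at day 4; at a minimum of 100 UMIs, 1 was lower at day 4. Without the 2 mitochondrial genes of most UMIs the nuclear minus mitochondrial difference was 0.65, 0.082, -1.44 and -0.87. Isoforms relative to partners were 0.98, 7.63 and 6.25 in the last 3 comparisons without Cox6a2 and Cox6a1, -0.48, 8.07 and 7.13 in the oral wound and both tissue comparisons without Cox7a1 and Cox7a2, and -0.31, 6.98 and 6.92 in the last 3 without Cox8b and Cox8a. In the alternative chosen after seeing the data, facial spots under 1% neutrophil markers, 2 nuclear subunits were higher in the facial wound, the nuclear minus mitochondrial difference was -0.035 there and -1.51 between unwounded tissues, and the sum and isoforms there were 2.95 and 7.33. Leaving out 1 of the 4 parts of a section in turn gave ranges for the oral wound of -2.64 to -0.19 for the sum, 0 to 3 higher, 0 to 74 lower, 0.47 to 1.48 for the difference and -3.29 to 0.29 for isoforms. Facial wound ranges were -0.20 to 0.14, 0 to 3, 0 to 1, -0.11 to 0.16 and -1.06 to 2.68. For unwounded tissues they were 2.46 to 3.22, 71 to 76, 2 to 5, -1.56 to -1.33 and 6.97 to 9.81, and for day 4 tissues 0.28 to 2.73, 4 to 76, 1 to 3, -1.01 to -0.0039 and 3.84 to 8.14. The cause of these shifts was not tested, apart from the changes that each setting makes by construction.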
